A study of Mus musculus with 24 samples.

Results

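The comparison described here is the loss of PLCγ2 in B cell progenitors, the mouse bone marrow cells that carry B220 and the IL-7 receptor but no surface IgM. Its members are 6 of the 24 RNA-seq libraries of the series, chosen by their labels. These are 3 libraries of genotype PLCgamma1+/+PLCgamma2-/-, written here Plcg2-/-, and 3 of genotype PLCgamma1+/+PLCgamma2+/+, written here wild type. The other 18 libraries hold the remaining genotypes of these cells and all genotypes of CLPs (common lymphoid progenitors, Lin-IL-7R+ cells). The study asked what both PLCγ enzymes do in early B cell development, and the comparison asks which transcripts differ when PLCγ2 alone is missing. Per the study's methods, donor mice of all genotypes were treated with poly(I:C) before their bone marrow was transplanted into irradiated CD45.1+ recipients. Mx-1Cre, which is switched on by interferon and so by poly(I:C), serves to delete a floxed Plcg1, while Plcg2-/- is inherited and is missing in all tissues of a donor. Both sexes were used, of mixed 129xC57BL/6 strain origin. Each library came from 1 recipient, and how many donors a genotype had is not given in the sources used here, so p-values measure the spread between recipients.

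PLCγ1 and PLCγ2 are phospholipases that cut the membrane lipid PIP2 into IP3 and diacylglycerol when receptors activate them through tyrosine kinases. IP3 opens calcium channels of the endoplasmic reticulum and so feeds calcineurin and NFAT, and diacylglycerol activates protein kinase C and the Ras activators of the RasGRP family. PLCγ2 is the main PLCγ of B cells, where it acts downstream of the pre-B cell receptor (pre-BCR) and the B cell receptor through Syk, Btk and the adaptor Blnk.

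Reference sequences from RefSeq show the gene regions that the results turn on. The first pair bears on the gene with the largest fold change among the genes called, Rnaset2b, since a near-identical copy, Rnaset2a, lies on the same chromosome. The 255 bases shown of its promoter, chr17:6978655-6978909 on the plus strand of GRCm38.p6, and those of Rnaset2a, chr17:8147783-8148037 on the minus strand, share 254 of 255 bases, and the 1 base that differs is in capitals.
Rnaset2b: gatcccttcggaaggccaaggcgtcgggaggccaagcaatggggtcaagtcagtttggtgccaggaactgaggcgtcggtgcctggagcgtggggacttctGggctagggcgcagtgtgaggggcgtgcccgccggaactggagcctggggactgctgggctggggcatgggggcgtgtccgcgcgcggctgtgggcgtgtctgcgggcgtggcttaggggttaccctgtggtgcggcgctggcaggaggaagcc
Rnaset2a: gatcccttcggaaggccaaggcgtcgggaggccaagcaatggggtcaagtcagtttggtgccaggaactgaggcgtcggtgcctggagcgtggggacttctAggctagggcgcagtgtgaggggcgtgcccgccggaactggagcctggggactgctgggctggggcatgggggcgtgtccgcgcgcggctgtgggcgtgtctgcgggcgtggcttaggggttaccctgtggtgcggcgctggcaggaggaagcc
Their transcripts were identical at 2435 of 2448 aligned bases, or 99.47%, so reads of one gene could be counted for the other. Promoters of 3 other genes that were higher in Plcg2-/- cells are shown, picked because they hold the letters of the NFAT core. NFAT is the factor on which calcineurin, which calcium activates, acts. Each holds 1 copy of the NFAT core, GGAAAA on either strand, printed in capitals. The windows are chr14:51057193-51057492 on the minus strand for Rnase12, chr14:54431348-54431647 on the plus strand for Mmp14 and chr5:17835847-17836146 on the minus strand for Cd36.
Rnase12: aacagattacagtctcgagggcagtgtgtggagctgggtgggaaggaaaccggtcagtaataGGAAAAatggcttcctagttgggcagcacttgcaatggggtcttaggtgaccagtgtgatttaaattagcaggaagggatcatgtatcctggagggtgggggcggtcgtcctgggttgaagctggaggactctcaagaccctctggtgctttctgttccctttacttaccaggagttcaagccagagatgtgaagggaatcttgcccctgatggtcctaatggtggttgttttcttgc
Mmp14: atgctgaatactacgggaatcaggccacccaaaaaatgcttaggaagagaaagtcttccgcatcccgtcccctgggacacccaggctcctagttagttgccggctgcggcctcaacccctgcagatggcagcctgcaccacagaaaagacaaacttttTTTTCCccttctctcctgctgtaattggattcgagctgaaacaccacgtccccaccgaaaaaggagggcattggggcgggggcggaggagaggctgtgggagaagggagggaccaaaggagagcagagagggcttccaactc
Cd36: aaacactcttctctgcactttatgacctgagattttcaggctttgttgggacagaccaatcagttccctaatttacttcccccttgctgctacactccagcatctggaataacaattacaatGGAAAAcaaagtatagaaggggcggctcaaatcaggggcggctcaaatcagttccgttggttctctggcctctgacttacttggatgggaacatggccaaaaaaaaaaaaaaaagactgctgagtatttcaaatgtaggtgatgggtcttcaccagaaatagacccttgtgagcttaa
The same letters are in 23.4% of the 32851 promoter windows of this length in the table, in 1 of the 3 windows of Eps8l1, which was lower in Plcg2-/- cells, and in neither the window of Plcg2 nor those of Synj2 and Rnaset2b. The letters of the transcription factor AP-1, TGANTCA with N for any base, were searched as well. They were in none of the windows of the genes named here and in 7.81% of all windows. A match is a run of letters and not a shown binding site.

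The deleted gene was read first. Plcg2, on chromosome 8 from 117498275 to 117635142, had 215, 243 and 246 normalized CPM (counts per 1e6 reads, with libraries scaled by edgeR's TMM method) in wild-type libraries 1 to 3. In Plcg2-/- libraries 1 to 3 it had 94.9, 96.5 and 79.6 normalized CPM. All 3 knockout libraries lay below all 3 wild-type libraries, and the knockout level was 38.6% of the wild-type level. The log2 fold change was -1.37 (SE 0.17, edgeR adjusted p = 0.0187, with quasi-likelihood F tests and Benjamini-Hochberg correction). Reads therefore remained on the gene, and since the files hold 1 count for a whole gene, they cannot show over which exons. Plcg1, the other PLCγ, was measured at 93.3 ± 17.1 normalized CPM in wild-type and 100.4 ± 19.7 in Plcg2-/- cells (SD, n = 3 each). Its log2 fold change was 0.11 (SE 0.34, edgeR adjusted p = 0.962). Its direction turned to -0.02 without Plcg2-/- library 2 and to -0.01 without wild-type library 3.

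Depth differed between the libraries. Reads on genes numbered 10067130, 9826067 and 14212061 in the wild-type libraries and 2393873, 18959055 and 1479582 in the Plcg2-/- libraries, so that 3 reads stood for 1.25 CPM in Plcg2-/- library 1 and 2.03 CPM in library 3, against at most 0.305 CPM in any wild-type library. Between 59.9% and 71.4% of the reads of a wild-type library and between 63.8% and 75.8% of those of a Plcg2-/- library fell on no gene. All 12 markers of the B lineage were read in every library, and their summed level was 4858 to 6607 normalized CPM in wild-type and 3332 to 6923 in Plcg2-/- libraries, the lowest in Plcg2-/- library 1. Il7r, whose product marks the sorted cells, had 317 to 507 normalized CPM in wild-type and 161 to 471 in Plcg2-/- libraries. The labelled cell type was thus present in all 6 libraries, and the ranges of both genotypes overlapped.

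Of 15001 genes tested, 7 were called changed in Plcg2-/- B cell progenitors, which is 0.0467% of the genes tested. A call needed an adjusted p of at most 0.05 (edgeR, Benjamini-Hochberg) and a log2 fold change of at least 0.5 in either direction. The genes called higher were Rnaset2b, Rnase12, Mmp14, Cd36 and Synj2, 5 genes or 0.0333%, and those called lower were Eps8l1 and Plcg2 itself, 2 genes or 0.0133%. At an unadjusted p of at most 0.05 there were 426 genes, or 2.84%, with 273 higher (1.82%) and 153 lower (1.02%). The call of 7 genes rested on the spread estimated over all 12 B cell progenitor libraries. edgeR on the 6 compared libraries alone called 0 genes, with 389 at an unadjusted p of at most 0.05, while DESeq2 called 20 on these 6 (8 higher, 12 lower) and 17 on all 12 (8 higher, 9 lower), and both of its sets held all 7. Leaving out wild-type library 1, 2 or 3 left 0 calls by edgeR, with 1027, 232 and 395 genes at an unadjusted p of at most 0.05. Leaving out Plcg2-/- library 1, 2 or 3 left 1, 5 and 0 calls, with 599, 1134 and 282 genes at that p. In bulk RNA, fewer cells of a type and less RNA per cell cannot be told apart.

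**Figure D1:**
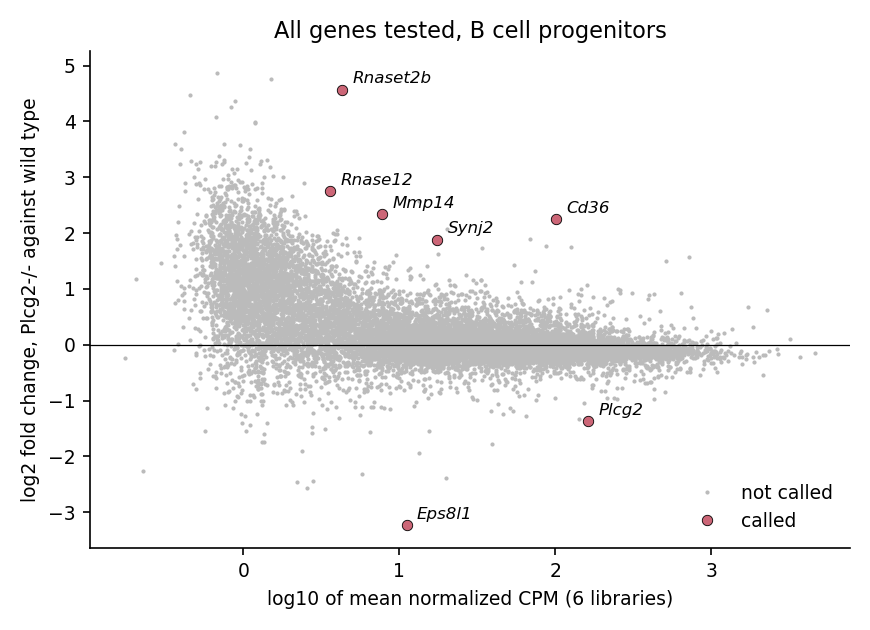
Each point is 1 of the 15001 genes tested, with the log10 of its mean normalized CPM over the 6 libraries on the x axis and the log2 fold change of Plcg2-/- against wild-type B cell progenitors on the y axis. The 7 genes called are named, and genes under 5 normalized CPM lie mostly above 0, with a median log2 fold change of 0.85.

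Fold changes depended on level. Genes with a mean under 5 normalized CPM had a median log2 fold change of 0.85 (4490 genes), against -0.05 for the other 10511 genes. In the lowest class, under 1 normalized CPM, 92.2% of 1187 genes had a value above 0, whereas among the 2796 genes at 100 normalized CPM or more it was 22.96%. Both shallow libraries are Plcg2-/- libraries. The share of reads on no gene also differed, at 63.8%, 75.8% and 74.9% in Plcg2-/- libraries 1 to 3. It was 71.4%, 62.5% and 59.9% in wild-type libraries 1 to 3. The part of depth or of this share in the pattern was not tested. Rnaset2b and Rnase12 belong to the class from 1 to 5 normalized CPM, whose median was 0.70 over 3303 genes, and their own changes were larger.

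The largest fall belonged to Eps8l1, which encodes a relative of the actin regulator Eps8 and lies on chromosome 7 from 4460638 to 4480487. It had 23.2, 18.3 and 17.6 normalized CPM in wild-type libraries 1 to 3 and 2.01, 1.56 and 4.08 in Plcg2-/- libraries 1 to 3. The genotypes were far apart without overlap, though the shallow Plcg2-/- libraries 1 and 3 held only 5 and 6 reads on the gene and library 2 held 29. The log2 fold change was -3.23 (SE 0.40, edgeR adjusted p = 0.0187), a 9.40-fold lower fitted level. Over 14 alternative settings it ranged from -3.54 to -2.79.

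Cd36 encodes a scavenger receptor and fatty acid transporter and lies on chromosome 5 from 17781690 to 17888959. It was the most abundant of the genes called higher, with 33.8, 31.2 and 39.96 normalized CPM in wild-type and 86.5, 253 and 157 in Plcg2-/- libraries 1 to 3. Every Plcg2-/- library lay above every wild-type library, and the knockout libraries spread widely, from 86.5 to 253. The log2 fold change was 2.25 (SE 0.29, edgeR adjusted p = 0.0192). Library 2, the highest, had the lowest summed levels of neutrophil and of macrophage markers among the 3 Plcg2-/- libraries (1490 and 229 normalized CPM), and library 1, the lowest, had the highest (8680 and 467). The part of other cells in the Cd36 values was not tested.

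Synj2 encodes synaptojanin 2, a phosphatase that removes phosphates from inositol lipids such as PIP2, the substrate of PLCγ. It lies on chromosome 17 from 5941280 to 6055766. Synj2 was read at 7.09, 8.07 and 7.27 normalized CPM in wild-type and 30.6, 26.8 and 25.2 in Plcg2-/- libraries, the narrowest spread around the mean among the genes called higher, in both genotypes. Its log2 fold change was 1.88 (SE 0.24, edgeR adjusted p = 0.0187), a 3.68-fold higher level.

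Mmp14, on chromosome 14 from 54431598 to 54442456, encodes a membrane-bound metalloproteinase that cuts collagen and other matrix proteins. It was read at 2.70, 1.94 and 3.15 normalized CPM in wild-type and 12.1, 17.1 and 9.53 in Plcg2-/- libraries. No knockout library reached down to the wild-type range. Its log2 fold change was 2.34 (SE 0.35, edgeR adjusted p = 0.0458), so it stood nearest to the threshold of the 7 genes.

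The 2 remaining genes encode members of ribonuclease families. Rnase12, on chromosome 14 from 51056698 to 51057242, belongs to the RNase A family. It had 12, 6 and 10 reads in wild-type libraries and 17, 74 and 12 in Plcg2-/- libraries, or 1.198, 0.646 and 0.750 against 6.84, 3.98 and 8.17 normalized CPM. The genotypes did not overlap, and the log2 fold change was 2.76 (SE 0.37, edgeR adjusted p = 0.0239). Rnaset2b, on chromosome 17 from 6978860 to 6998193, encodes a lysosomal ribonuclease of the T2 family. It had 2, 3 and 6 reads in wild-type libraries, at or near the 3 reads taken as a floor, and 31, 91 and 11 in Plcg2-/- libraries. In normalized CPM these were 0.200, 0.323 and 0.450 against 12.5, 4.90 and 7.49. This gave a log2 fold change of 4.57 (SE 0.66, edgeR adjusted p = 0.0394). The summed reads, 133 against 11, gave a ratio of 17.5 between genotypes once scaled, with an exact 95% interval of 9.48 to 35.9 that covers counting error only. The copy Rnaset2a had 0 reads in all 24 libraries, so the 2 genes cannot be told apart in these counts.

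Fitted sizes moved with the settings. Over 14 alternatives the log2 fold change ranged from 4.01 to 6.55 for Rnaset2b, from 2.55 to 4.29 for Rnase12, from 2.04 to 3.10 for Mmp14, from 1.77 to 2.52 for Cd36, from 1.77 to 2.12 for Synj2 and from -1.45 to -1.30 for Plcg2.

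**Figure D2:**
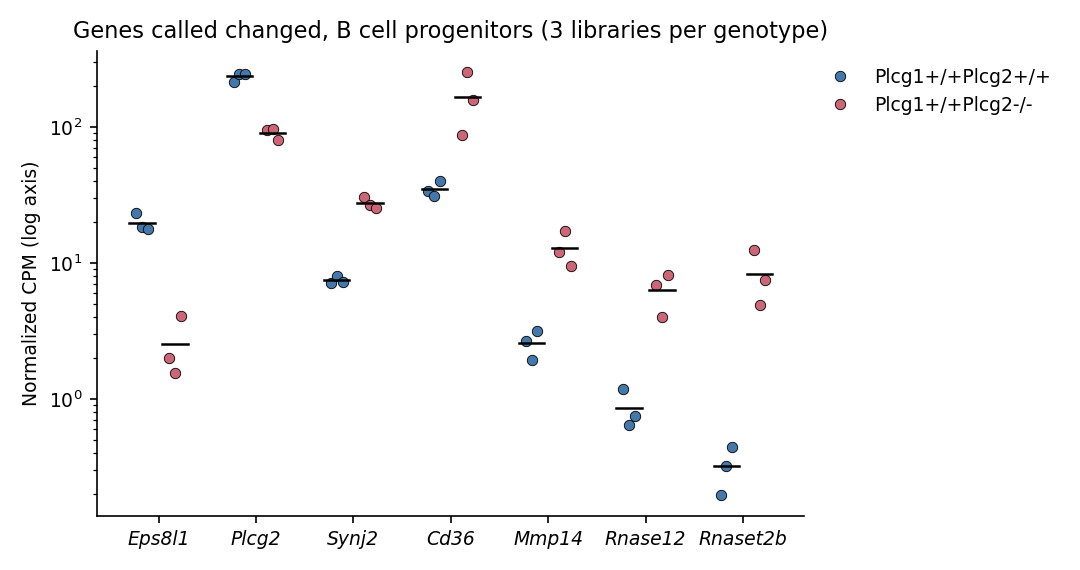
Points are normalized CPM of the 7 genes called in each of the 3 wild-type (blue) and 3 Plcg2-/- (red) B cell progenitor libraries, on a log axis, and lines are group means. The 7 were picked by their difference between these same libraries, and the genotypes do not overlap for any of them. Plcg2 lies between 215 and 246 in wild-type and between 79.6 and 96.5 in Plcg2-/- libraries. Over all genes tested, 4.66% had all 3 Plcg2-/- libraries above and 3.97% had them all below.

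Of the 20 ribonuclease genes of the A and T2 families listed, 12 were tested. Their median log2 fold change was 1.13, against 0.03 over all genes tested, and 12 of 12 lay above 0. The list was chosen with earlier results of these data known, and both values include Rnase12 and Rnaset2b, so they are description only. Of these 12, 2 were called higher (the genes above), and these 2 also made up the members at an unadjusted p of at most 0.05. Over all genes tested, 0.0333% were called higher and 1.82% were higher at that edgeR p. Values differed by level and by library, and the part of either was not tested. The 5 members under 5 normalized CPM, which include the 2 called genes, had a median of 2.05. All genes of that level had 0.85, and the 7 other members had 0.36. Ear1, Ear2 and Ear6, ribonucleases of eosinophil granules, had log2 fold changes of 1.77, 1.66 and 2.08 and did not pass the test, and their highest values were in Plcg2-/- library 1. Ear1 was read at 339 normalized CPM there, at 20.5 and 43.6 in the other Plcg2-/- libraries, and at 25.3 to 57.7 in wild-type libraries. The summed eosinophil, basophil and mast cell markers were 3869 normalized CPM in library 1, against 512 to 1007 in the 5 others. The number of members below 0, which was 0, became 6 without Plcg2-/- library 1, 2 without wild-type library 2 and 1 without Plcg2-/- library 2.

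Below the threshold, the genes with the smallest p that also kept the genotypes apart were read as a ranked list, 12 in each direction with the called genes included. Among the lower ones after Plcg2 and Eps8l1 came Amigo1, a cell adhesion molecule, with a log2 fold change of -1.54 and an edgeR adjusted p of 0.155. It had 25.1, 24.7 and 19.9 normalized CPM in wild-type and 9.65, 7.80 and 6.13 in Plcg2-/- libraries. Psme4, which encodes the proteasome activator PA200, followed with -0.84 (adjusted p = 0.168), from 305, 220 and 225 to 140, 149 and 130. Blk encodes a Src family kinase of B cells. It had 205, 217 and 187 normalized CPM in wild-type and 72.4, 117 and 45.6 in Plcg2-/- libraries, a log2 fold change of -1.33 (adjusted p = 0.607). Sdc1, the surface proteoglycan syndecan-1, went from 53.1, 56.3 and 52.5 to 18.5, 25.2 and 27.2, or -1.19. The other lower genes were Tmem181b-ps, Fam3c, Cfl2, Lima1, Fcmr and Arl5a, with values from -2.38 in Fcmr, which encodes the IgM Fc receptor, to -0.62 in Cfl2, a cofilin.

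Among the higher ones after the 5 called genes, Aldh5a1, which encodes succinate semialdehyde dehydrogenase, had 1.30, 2.26 and 1.199 normalized CPM in wild-type and 8.85, 4.197 and 6.13 in Plcg2-/- libraries, a log2 fold change of 1.98 (edgeR adjusted p = 0.681). H2-T10, a nonclassical MHC class I gene, went from 23.2, 24.5 and 26.5 to 39.8, 45.1 and 49.7, or 0.85 (adjusted p = 0.684). Tagap1, 0610039K10Rik, 2410127L17Rik, A930015D03Rik and Lrp4, a receptor of the LDL receptor family, had values from 0.62 to 1.69. None of these 17 genes passed the test, and that their genotypes do not overlap was a condition for naming them. Over all genes tested, 4.66% had all 3 Plcg2-/- libraries above the wild-type ones and 3.97% had them all below.

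Genes of the pathway itself were compared as lists. Of 16 phospholipase C genes, 14 were tested and Plcg2 was the 1 called. Plcl2, a catalytically inactive relative, had 120, 168 and 152 normalized CPM in wild-type and 116, 114 and 114 in Plcg2-/- libraries, a log2 fold change of -0.35 at an unadjusted edgeR p of 0.0350. Plcb1, a phospholipase C that G proteins activate, had 0.96 with overlapping libraries. The median of the family was 0.32, and 0.09 over the 10 members at 5 normalized CPM or more. The number of members below 0, 3 of 14, became 6 without Plcg2-/- library 1 and 5 without Plcg2-/- library 2 or wild-type library 3.

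In the diacylglycerol branch (among them protein kinases C and D, RasGRP proteins and diacylglycerol kinases), all 28 genes were tested, 0 were called and 0 had an unadjusted edgeR p of at most 0.05. Its median was -0.04. Dgkd, a diacylglycerol kinase, had the smallest p and a value of -0.48 with overlapping libraries. In the IP3 and calcium branch, 26 of 27 genes were tested, with 0 called, 0 at an unadjusted p of at most 0.05 and a median of -0.06. Camk4, a kinase that calcium and calmodulin activate, had 3.00, 2.58 and 3.898 normalized CPM in wild-type and 4.42, 7.32 and 6.13 in Plcg2-/- libraries, or 0.94 at an unadjusted p of 0.0755. The IP3 receptor gene Itpr1 had 109 to 151 normalized CPM in wild-type and 127 to 217 in Plcg2-/- libraries, and the calcium sensor gene Stim1 had 83.4 to 95.7 against 73.5 to 86.3. No member of either second messenger branch was detectably different at this depth, with member values from -0.79 to 1.85. Over all genes tested, 0.0467% were called and 2.84% had an unadjusted edgeR p of at most 0.05. Counts of 0 in lists this small therefore say little about the branches.

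Genes that the pathway feeds were read next. Of 22 NF-kB pathway genes and targets 20 were tested, with 0 called and 1 at an unadjusted edgeR p of at most 0.05. That gene was Cd83, a surface molecule of activated B cells and dendritic cells, at 5.19, 6.24 and 17.5 normalized CPM in wild-type and 0.804, 2.26 and 2.72 in Plcg2-/- libraries. Its log2 fold change was -2.31 (adjusted p = 0.919), with no overlap between genotypes. Relb, an NF-kB subunit gene, had 41.1, 34.6 and 33.2 against 28.2, 30.5 and 15.7, or -0.51 at an unadjusted p of 0.0598. The list's median was -0.02 with 11 of 20 below 0, or 7 without wild-type library 3. All 29 immediate early and ERK feedback genes were tested, with 0 called, 0 at that p and a median of -0.13. Spred1, an inhibitor of the Ras and ERK pathway, had 43.2, 48.7 and 57.8 normalized CPM in wild-type and 58.7, 59.3 and 70.8 in Plcg2-/- libraries, or 0.33. Of the 29, 17 lay below 0, but 8 without Plcg2-/- library 1 and 5 without wild-type library 3.

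Of 24 genes of the pre-BCR and its proximal kinases, 0 were called, 1 (Blk, above) had an unadjusted edgeR p of at most 0.05, and the median was -0.09. Although 21 of the 24 lay below 0, 13 did so without Plcg2-/- library 1. The surrogate light chain gene Igll1 had 316 to 499 normalized CPM in wild-type and 174 to 689 in Plcg2-/- libraries, and the signalling chain gene Cd79a had 464 to 664 against 315 to 703. The kinase gene Btk had 182 to 205 against 166 to 222, and the adaptor gene Blnk 345 to 484 against 208 to 515. In all 4, library 1 held the lowest Plcg2-/- value and the ranges overlapped. Transcription factors of the B lineage had a median of -0.24 with 20 of 27 below 0, and genes of V(D)J recombination had -0.23 with 12 of 14 below 0. Neither list had a member called or at an unadjusted p of at most 0.05. Ikzf1, which encodes Ikaros, came closest, with 1005 to 1035 normalized CPM in wild-type and 635 to 959 in Plcg2-/- libraries, a value of -0.44 without overlap. Among all genes tested, 42.8% lay above 0 between 10 and 100 normalized CPM, and 22.96% at 100 or more. The counts below 0 in these lists stand beside those shares.

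Surface and signalling genes of later B cell stages were read next. Of 33 genes tested 0 were called, and 6 had an unadjusted edgeR p of at most 0.05 (2.84% of all genes tested), with 5 lower and 1 higher. All 6 are given here, chosen after their values were seen. Fcmr had 22.6, 32.8 and 46.6 normalized CPM in wild-type and 8.45, 7.43 and 2.04 in Plcg2-/- libraries. Ccr7, a chemokine receptor for homing to lymphoid organs, had 38.9, 53.4 and 81.4 against 20.1, 27.1 and 37.4. Il2ra, which encodes CD25, a surface mark of small pre-B cells, had 74.3, 74.3 and 48.1 against 28.2, 39.1 and 10.9. For these 3 genes the genotypes did not overlap, and the log2 fold changes were -2.38, -1.06 and -1.24 (adjusted p = 0.919 each). Cd38 and Fcrla, a B cell protein related to Fc receptors, had -0.91 and -0.96 with overlapping libraries. Tnfrsf13c, which encodes the receptor for the survival factor BAFF, had 69.0, 82.5 and 67.4 in wild-type and 125, 144 and 89.2 in Plcg2-/- libraries, or 0.72. The median of the list was -0.06, so most of its members did not share these values. Early progenitor genes had a median of 0.16 with 0 of 20 called and 7 below 0 (16 without Plcg2-/- library 1), and the 1 of them at an unadjusted p of at most 0.05 was Dtx1, a Notch regulator, with -1.16. It had 13.7, 11.4 and 10.7 normalized CPM in wild-type and 5.23, 5.38 and 5.44 in Plcg2-/- libraries.

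The study placed PLCγ downstream of the IL-7 receptor and upstream of mTOR, so both lists were read. Of the 18 IL-7 receptor pathway genes 0 were called by edgeR and 0 reached an unadjusted p of 0.05 or less, with a median of -0.06. Ccnd2, the cyclin gene with the smallest p of the list, had 140 to 148 normalized CPM in wild-type and 74.9 to 151 in Plcg2-/- libraries, or -0.35. Of 37 genes of the mTOR complexes and their regulators 0 were called and 1 had an unadjusted edgeR p of at most 0.05, with a median of -0.10. That gene was Akt1, a kinase upstream of mTOR, at 313, 356 and 335 normalized CPM in wild-type and 235, 283 and 258 in Plcg2-/- libraries. All 3 knockout libraries lay lower, by -0.37 on the log2 scale (adjusted p = 0.919).

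Genes of the cell cycle had small values. DNA replication genes had a median of -0.18, with 37 of 40 below 0, 7 with all Plcg2-/- libraries below all wild-type ones (3.97% of all genes tested), 0 called and 0 at an unadjusted edgeR p of at most 0.05. E2f1, a transcription factor that drives replication genes, had 72.6, 77.8 and 81.2 normalized CPM in wild-type and 51.5, 70.8 and 71.5 in Plcg2-/- libraries, or -0.26. Gins4, a subunit of the replicative helicase, had 47.4 to 61.9 against 37.8 to 48.5, or -0.29 with overlap. Mitosis genes had a median of -0.19 with 39 of 40 below 0, and again 0 called and 0 at that p. Without Plcg2-/- library 1 only 25 of them lay below 0, so that library carried much of the count. Bub1, a spindle checkpoint kinase gene, had 202, 216 and 223 normalized CPM in wild-type and 110, 215 and 184 in Plcg2-/- libraries, or -0.33 with overlap, the lowest value being that of library 1. Over all genes tested, the median was -0.04 between 10 and 100 normalized CPM and -0.10 at 100 or more, with 42.8% and 22.96% above 0. Genes of survival and death had a median of 0.03 and interferon-stimulated genes 0.14, with 0 called and 0 at an unadjusted edgeR p of at most 0.05 among 25 and 30 tested. Of the interferon-stimulated genes 8 lay below 0, or 4 without wild-type library 3 and 12 without Plcg2-/- library 1.

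**Figure D3:**
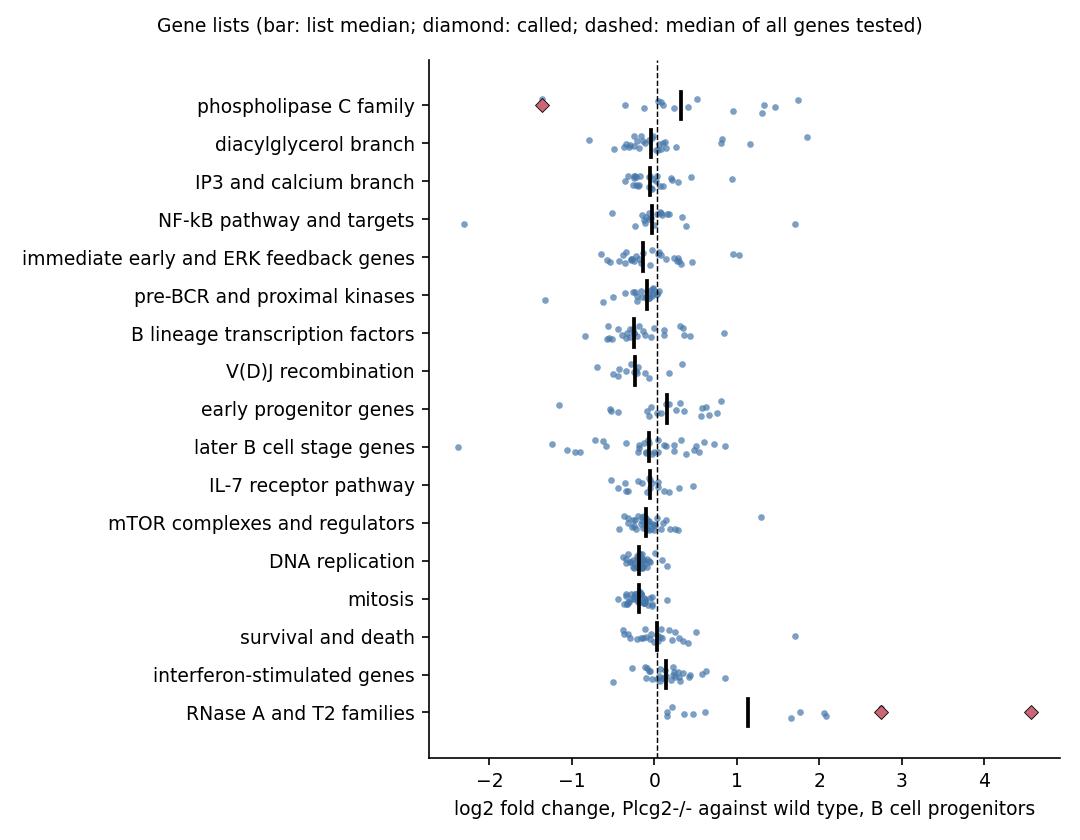
Each point is 1 tested member of a gene list, placed by its log2 fold change in Plcg2-/- against wild-type B cell progenitors. Bars are list medians, diamonds the members called (Plcg2, Rnase12 and Rnaset2b), and the dashed line is the median of all genes tested, 0.03.

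Markers of other cell types were summed in each library. Neutrophil and myeloid progenitor markers ranged from 1528 to 4729 normalized CPM in wild-type and from 1490 to 8680 in Plcg2-/- libraries, with 15 of 15 genes above 0. Macrophage markers ranged from 159 to 340 and from 229 to 467, with 17 of 19 above 0, and the complement gene C1qa was read in every library. For scale, 8059 of all 15001 genes tested lay above 0, and 10 of the 12 B lineage markers lay below 0. The neutrophil and myeloid progenitor sums were 8680, 1490 and 5070 normalized CPM in Plcg2-/- libraries 1 to 3. That of library 2, the deepest, was below every wild-type library. T cell markers ranged from 185 to 206 in wild-type and from 177 to 273 in Plcg2-/- libraries. Erythroid markers ranged from 164 to 660 and from 287 to 476. Of these 15 genes, 6 globin genes had 0 reads in all 6 libraries, while the 9 others were read and tested. Car2 had 131 to 242 normalized CPM in wild-type and 173 to 248 in Plcg2-/- libraries. The 0 reads on globin genes therefore do not show that erythroid RNA was absent. In none of the 12 marker lists of other cells was a gene called by edgeR, and genotype ranges overlapped for all of them. The part of such cells in the results above was not tested.

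Several genes with small p-values lay near each other, a pattern seen only after the values were known and described without a test. In 530 windows of 5 Mb, the window on chromosome 17 from 5000000 to 10000000 held the most genes at an unadjusted edgeR p of at most 0.01, 4 of 33 tested, against 0.587% of all genes. Of its genes, 7 had an unadjusted p of at most 0.05, and both Synj2 and Rnaset2b lie in it, 1.04 Mb apart. Tagap1 starts 0.0239 Mb from Rnaset2b and had 10.8, 13.5 and 20.02 normalized CPM in wild-type and 30.6, 34.8 and 25.9 in Plcg2-/- libraries. Its near-identical partner Tagap had 15.9, 21.4 and 41.0 against 22.9, 9.15 and 32.7, so that the sum of both genes overlapped between genotypes. Tmem181b-ps, a pseudogene 0.540 Mb away, had 71.4, 76.6 and 63.8 against 38.2, 36.6 and 18.4. The partner Tmem181a had 13.7 to 17.1 against 10.1 to 20.5, and the sum stayed lower in every Plcg2-/- library, at most 58.7 against at least 78.7. Directions thus differed within the window. Rnase12 and Mmp14 lie 3.37 Mb apart in the window on chromosome 14 from 50000000 to 55000000, where 8 of 57 genes had an unadjusted p of at most 0.05. Around Plcg2 itself, within 10 Mb, 156 genes were tested, with Plcg2 the 1 called and Sipa1l2, at 39.5 to 45.2 normalized CPM in wild-type and 21.7 to 34.0 in Plcg2-/- libraries, the 1 other at an unadjusted p of at most 0.05. Their median was -0.04. The mice came from a mixed 129xC57BL/6 background, and a part of linked strain alleles in these values was not tested.

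**Figure D4:**
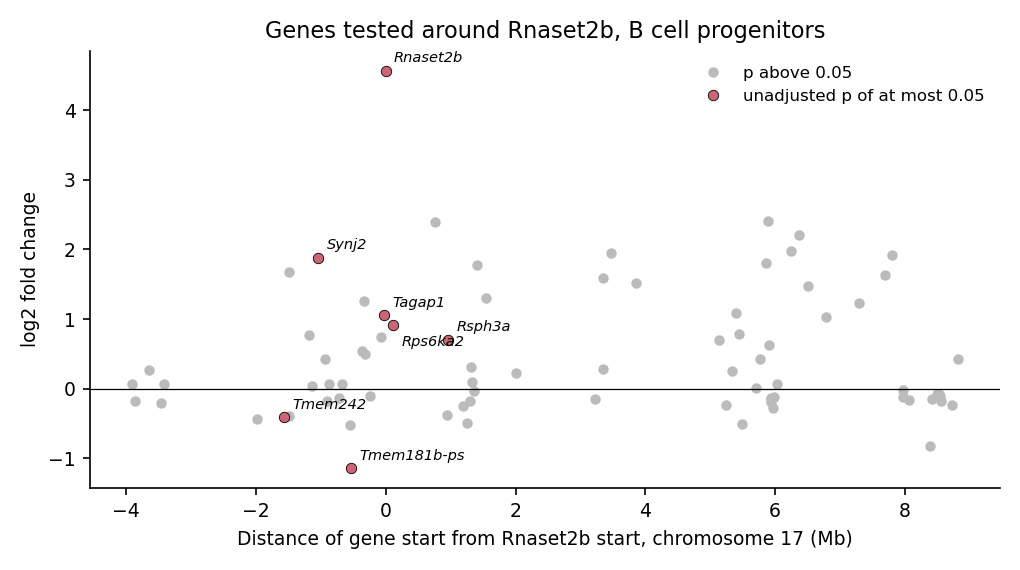
The 79 genes tested on chromosome 17 between -3.91 and 8.83 Mb of the start of Rnaset2b are placed by the distance of their start from the start of Rnaset2b in Mb (x axis) and by their log2 fold change in Plcg2-/- against wild-type B cell progenitors (y axis). The 7 of them at an unadjusted p of at most 0.05 are named and lie between -1.57 and 0.967 Mb, with values from -1.14 to 4.57.

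The same loss was then read on a second background. In B cell progenitors labelled Plcg1-/-, loss of Plcg2 (labelled Plcg1-/-Plcg2-/- against Plcg1-/-Plcg2+/+, 3 libraries each) changed 32 genes, 0.213% of 15001, with 9 higher and 23 lower. The labels could not be checked on Plcg1, which stood at 80.1 ± 19.2 normalized CPM in libraries labelled Plcg1-/-Plcg2+/+ and at 127 ± 64.6 in those labelled Plcg1-/-Plcg2-/- (SD, n = 3 each). Of these 6 libraries 3 lay below the lowest wild-type library (80.7) and the others above it. These counts cover the whole gene and cannot show loss of its floxed part. By western blot of YFP+ cells, the study found that YFP, its mark of Cre action, went closely with loss of PLCγ1 protein in marrow cells of both genotypes. Its description of the cells sorted for RNA-seq names no YFP gate, so the blot does not show the state of Plcg1 in these libraries. Sex also differed between the comparisons. Xist, the RNA of the inactive X chromosome, had 49.5 to 123 normalized CPM in the wild-type and Plcg2-/- libraries and 1500 to 2209 in the 6 libraries labelled Plcg1-/-, while the Y-linked Ddx3y had 157 to 194 and 3.79 to 15.2. Wild-type and Plcg2-/- libraries were thus alike in these genes, and the 2 Plcg1 backgrounds and sex cannot be told apart. Reads of Xist and of its antisense partner Tsix cannot be told apart, as the strand setting is not stated.

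Of the 7 genes, Plcg2 and Rnase12 were also called on that background. Plcg2 was at 206 ± 24.8 normalized CPM with the allele and at 91.8 ± 19.4 without it (SD, n = 3 for both). The log2 fold change was -1.16 (SE 0.16, edgeR adjusted p = 0.0323). Rnase12 rose from 5.93 ± 0.437 to 21.1 ± 5.52, or 1.83 (edgeR adjusted p = 0.0465), starting from a level that the Plcg2-/- libraries had reached (6.33 ± 2.14). Cd36 had 34.1 ± 0.838 and 86.3 ± 6.95, or 1.34 (adjusted p = 0.116). Synj2 had 16.6 ± 4.09 and 26.0 ± 6.87, or 0.67. Rnaset2b had 3.33 ± 1.73 and 3.84 ± 2.05, or 0.17, and its 3 wild-type libraries lay below all 9 others of these cells. Without a library the count of 32 became 0 (labelled Plcg1-/-Plcg2+/+ library 1 or labelled Plcg1-/-Plcg2-/- library 2), 3 and 11 (labelled Plcg1-/-Plcg2+/+ libraries 2 and 3), and 58 and 2 (labelled Plcg1-/-Plcg2-/- libraries 1 and 3), and DESeq2 called 802. Of the 58, 44 were higher and 14 lower, the opposite balance.

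Genes that stood lower in Plcg2-/- cells without passing the test included several called lower on the labelled Plcg1-/- background. These were Blk (132 ± 24.2 against 33.1 ± 7.52 normalized CPM, SD, n = 3 for both), Amigo1 (19.4 ± 6.66 against 6.60 ± 0.814), Lima1, a LIM domain protein of the actin cytoskeleton (58.1 ± 13.6 against 14.2 ± 4.22), Fcmr (29.3 ± 22.1 against 2.79 ± 1.18), Ccr7 (37.2 ± 1.45 against 11.7 ± 1.62) and Dtx1 (9.79 ± 5.84 against 0.982 ± 0.631). Their log2 fold changes there were -1.98, -1.54, -2.08, -3.55, -1.65 and -3.46, and that of Il2ra was -2.89 (edgeR adjusted p = 0.0323 to 0.0465 over the 7 genes). With Plcg1 intact the same genes had -1.33, -1.54, -1.27, -2.38, -1.06, -1.16 and -1.24. None of the 7 was among the 4 genes called by the test of the difference described next. H2-T10 was called higher on that background, with 1.23 against 0.85, and A930015D03Rik had 1.67 against 1.69. Other genes of the ranked list had the opposite sign there. Cfl2 and Tmem181b-ps, lower with Plcg1 intact, had 0.33 and 0.12. Aldh5a1, Tagap1, 0610039K10Rik, 2410127L17Rik and Lrp4, higher with Plcg1 intact, had -1.16, -0.20, -1.40, -0.07 and -0.56. The later B cell stage list as a whole had a median of -0.99 there and -0.06 with Plcg1 intact, beside -0.03 and 0.03 over all genes tested.

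The difference between backgrounds was tested by an interaction contrast in the same 12 libraries, which called 4 genes, 0.0267% of 15001. Among them were Eps8l1 and Mmp14. Eps8l1 had 13.1 ± 3.41 normalized CPM in cells labelled Plcg1-/-Plcg2+/+ and 18.5 ± 6.59 in those labelled Plcg1-/-Plcg2-/-, so its fall was seen with Plcg1 intact, and the difference of log2 fold changes was 3.75 (SE 0.52, edgeR adjusted p = 0.0342). Mmp14 had 10.9 ± 3.18 and 4.49 ± 1.22, opposite to its rise with Plcg1 intact, and the difference was -3.65 (SE 0.49, edgeR adjusted p = 0.0342). For the other 5 genes the difference did not pass the test, which does not show that they behaved alike. The 2 other genes called, Serinc3 and 0610039K10Rik, overlap on chromosome 2 and start 2.89 and 2.91 Mb from Plcg1. Their counts are uncertain where the genes overlap.

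In CLPs, which were sorted from the same recipients, edgeR called 0 of 15209 genes (0%) between Plcg2-/- and wild type, with 596 at an unadjusted p of at most 0.05, and DESeq2 called 11. Without wild-type library 3 edgeR called 1. All 7 genes had values of the same sign as in B cell progenitors, though none passed the test. Eps8l1 was at 20.4 ± 3.63 normalized CPM in wild-type and 3.35 ± 2.46 in Plcg2-/- CLPs (SD, n = 3 each). The log2 fold change was -2.74 (SE 0.47, edgeR adjusted p = 0.368). Rnaset2b was at 1.77 ± 1.48 and 14.7 ± 2.18, or 2.92 (SE 0.47), and Rnase12 at 1.26 ± 1.15 and 11.02 ± 4.26, or 2.88 (SE 0.57). Plcg2, with 232 ± 43.1 and 122 ± 18.9, had -0.93 (SE 0.16), and Mmp14, Cd36 and Synj2 had 1.94, 1.29 and 1.22. As CLPs and B cell progenitors share the mouse numbers of their labels, this is no independent repeat. The test of the difference between populations, over all 24 libraries, called 0 of 17212 genes (0%) by edgeR, with 155 at an unadjusted p of at most 0.05, and 0 by DESeq2. With the mouse as a block the count was also 0.

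**Figure D5:**
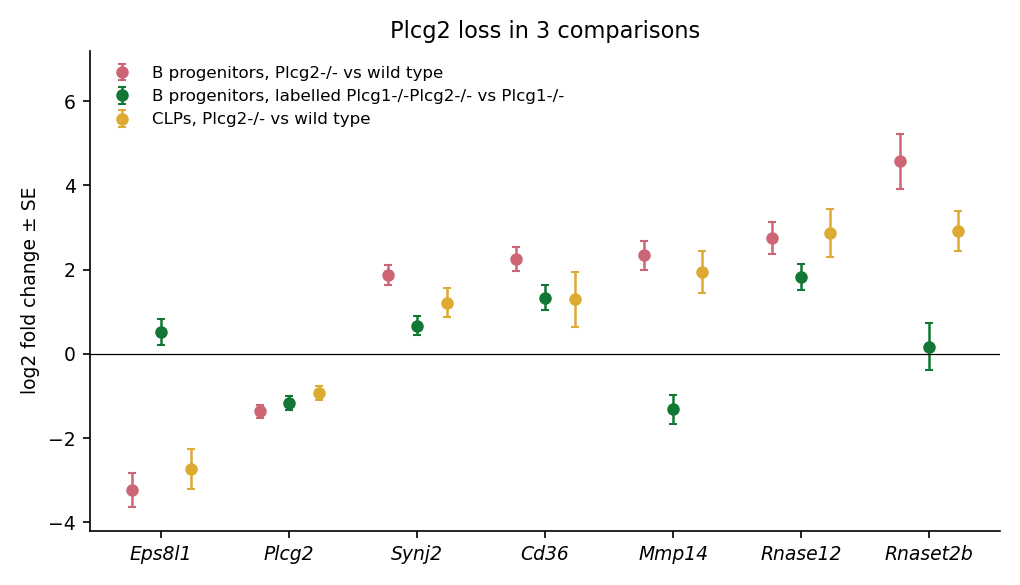
Points are log2 fold changes and bars standard errors (1 SE either way) of the 7 called genes in 3 comparisons, namely Plcg2-/- against wild type in B cell progenitors (red), the same loss on the background labelled Plcg1-/- (green) and Plcg2-/- against wild type in CLPs (yellow). Mmp14 lies at 2.34, -1.32 and 1.94, and Eps8l1 at -3.23, 0.52 and -2.74.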

How the data were processed

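Poly(A) RNA was sequenced on an Illumina NextSeq instrument. Per the study's methods and the submitters' processing notes, reads were placed on mm10 by STAR 2.5.0a in BaseSpace, and the authors deposited raw read counts per gene symbol for each library. The counting program and its strand setting are not given in the sources used here. The rows that count reads outside genes and ambiguous reads were left out of library sizes and tests. Counts of 24421 genes were filtered (filterByExpr), scaled by TMM and compared in edgeR 4.0.16 (R 4.3.3) by quasi-likelihood tests over the 12 libraries of a population, or over all 24 for the test between populations, without covariates. A call needed both an adjusted p (Benjamini-Hochberg) no higher than 0.05 and a log2 fold change of 0.5 or more in size. Each standard error is the log2 fold change divided by the square root of F. The script was tested on simulated data.

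Genes named were the targeted genes and Il7r, all genes called, the 12 smallest p-values per direction without overlap between genotypes and with a mean of at least 1 CPM, and from each list the members called or the 2 with the smallest p, with defining pathway members and those said to be chosen after their values were seen. The members and lists were chosen with earlier results of these data known. Same-numbered wild-type and Plcg2-/- libraries did not vary together, so no block was used. Alternatives were RLE size factors, no filter, adjusted p alone, DESeq2 1.42.0, limma voom 3.58.1 with sample quality weights, the 6 libraries alone, thinned counts, a replicate block (the mouse, for the test between populations) and each library left out. Depth is given with the results, and intervals cover counting error only. Positions and promoters come from RefSeq on GRCm38.p6, the assembly of mm10, on which 24299 genes had 1 position. GENCODE transcripts of near-identical genes were aligned with Biopython 1.88.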

Additional observations from a re-analysis of the deposited data

Results flagged for a closer look

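The effect of Plcg2 loss differed between Plcg1 backgrounds by the interaction contrast (edgeR, Benjamini-Hochberg adjustment) for 4 genes, each a difference of 2 log2 fold changes with the effect in wild-type Plcg1 subtracted. The difference was -2.02 for 0610039K10Rik (adjusted p = 0.0138), -2.31 for Serinc3 (adjusted p = 0.0244), -3.65 for Mmp14 and 3.75 for Eps8l1 (adjusted p = 0.0342 for both). Serinc3, a membrane protein gene, was at 1793 ± 117 normalized CPM in wild-type and 2777 ± 398 in Plcg2-/- libraries. It was at 1452 ± 185 in libraries labelled Plcg1-/-Plcg2+/+ and 455 ± 128 in those labelled Plcg1-/-Plcg2-/- (SD, n = 3 each). 0610039K10Rik was at 120 ± 17.2, 185 ± 17.9, 85.7 ± 9.53 and 32.6 ± 4.86 normalized CPM in the same order. Sex-linked genes differed between the backgrounds, and their part in these values was not tested. With 1 of the 12 libraries left out, the count of 4 ranged from 0 to 5. It was 0 without wild-type library 2 or 3, Plcg2-/- library 2, or library 1 or 3 of those labelled Plcg1-/-Plcg2+/+, and 1 or 2 without 6 others. It was 5 without library 1 of those labelled Plcg1-/-Plcg2-/-.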

How the results depend on the processing

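The count of 7 genes became 17 with DESeq2 on the same libraries, 20 with DESeq2 on the 6 libraries alone, 0 with edgeR on these 6 (389 genes at an unadjusted p of at most 0.05), 3 with counts thinned to 1479582 reads, and between 0 and 5 with 1 library left out. It stayed at 7 with RLE size factors, without the filter and with adjusted p alone, and was 5 with quality weights. The replicate block also gave 7, with 6 of the 7 genes, 4 higher and 3 lower, although the numbers do not pair these libraries (mean correlation of same-numbered deviations -0.213, others 0.103). The 426 genes at an unadjusted p of at most 0.05 became 2176 with quality weights and 741 with the replicate block. No direction of the 7 genes turned under any of the 14 alternatives, but their calls did not hold in all. Cd36 was called in 9 of the 14, Plcg2 in 8, Synj2 in 7, Mmp14 in 5, and Eps8l1, Rnase12 and Rnaset2b in 6 each. In the 6 fits with 1 library left out, Cd36 was called in 2 and Plcg2, Rnase12 and Rnaset2b in 1 each. Eps8l1, Synj2 and Mmp14 were called in 0 of these 6. Plcg1, at 0.11, ranged from -0.0211 to 0.25 with 1 library left out. Its value turned to -0.0211 without Plcg2-/- library 2 and to -0.00556 without wild-type library 3. On the background labelled Plcg1-/-, the count of 32 became 17 with RLE, 100 with the replicate block, 802 with DESeq2 and 0 to 58 with 1 library left out. In CLPs the count of 0 became 11 with DESeq2 and 0 to 1 with 1 library left out. The interaction count of 4 became 642 with DESeq2 and 0 to 5 with 1 library left out, and was 3 with the replicate block. The test between populations gave 0 in all 16 alternatives. The causes were not tested. Leave-one-out fits assume that the pair left varies like other groups. Depth limits the Plcg2-/- libraries 1 and 3 most. Members of gene lists below 0 were recounted with RLE and with each library left out, alternatives chosen after seeing the data.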

Other observations

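Some marker genes of other cells had an unadjusted edgeR p of at most 0.05, against 2.84% of all genes tested, and 0 were called. Of 12 stroma and endothelium genes 2 were higher at that p. Col3a1, a fibrillar collagen gene, had 1.60, 2.69 and 1.27 normalized CPM in wild-type and 11.7, 3.12 and 6.81 in Plcg2-/- libraries. Kdr, a VEGF receptor gene of endothelium, had 3.00, 2.15 and 2.62 against 5.23, 3.66 and 8.17. For both, the genotypes did not overlap, the Plcg2-/- values were highest in the shallow libraries 1 and 3, and the log2 fold changes were 1.91 and 1.05. The conventional dendritic cell, NK and plasmacytoid dendritic cell sets had 1 gene each at that p, namely Ccl22 (2.59), Zbtb16 (1.09) and Atp1b1 (-0.78). Of 10 plasma cell genes it was Sdc1 alone, and of 10 mature B cell genes it was Ccr7 and Fcmr, all given above as lower. Of these 10, 3 had all Plcg2-/- libraries below all wild-type ones, against 3.97% of all genes tested. Among plasmacytoid dendritic cell markers, Siglech had 43.0 to 91.0 normalized CPM in wild-type and 47.3 to 74.2 in Plcg2-/- libraries and Ccr9 had 11.7 to 20.5 against 14.4 to 25.2, while most of the summed level came from genes that B or myeloid cells also express, such as Spib and Irf8.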
